A study of Homo sapiens with 12 samples.

Results

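RNA from MDA-MB-231 cells with a guide against UFL1 was compared with RNA from the control cells that the labels assign to the guide against UFM1. MDA-MB-231 is an established human cell line of triple-negative breast cancer. The comparison takes 6 of the 12 libraries of the series: 3 labelled sgUFL1 and 3 labelled as controls (sgCtrl) for sgUFM1. No drug, time point or second allele is given for either group, and the labels do not say whether the cells were a clone or a pool, nor whether replicates were grown separately. What the p-values measure is the spread from library to library, and part or all of it may be technical. Library totals ran from 16028438 to 18033331 counts for sgUFL1 and from 15479597 to 16043380 counts for these controls, over 58735 genes.

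UFM1 is a small protein related to ubiquitin that is attached to other proteins, a step called UFMylation. After activation UFC1 carries it and UFL1, held at the endoplasmic reticulum (ER) by DDRGK1, attaches it, and the proteases UFSP1 and UFSP2 mature or remove it. Its best known target is the ribosomal protein RPL26 on ribosomes docked at the ER, and the pathway is known for its part in the turnover of stalled proteins and of the ER itself.

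The names of these libraries depend on the table that is read. The series has a table of counts and a table of FPKM (fragment counts scaled by gene length and library size), and for 6 of the 12 libraries the columns that hold the same values carry the names of different groups. The columns called sgUFL1 in the FPKM table match the columns called controls for sgUFM1 in the count table, and the reverse. All signs below follow the names of the FPKM table. Under the names of the count table the sign of every change between these 2 groups turns: what is described as lower in sgUFL1 would be higher, with the same size, error and p-value. The libraries of sgUFM1 and of its comparison group have the same names in both tables, so their changes do not turn.

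Within both groups the first replicate stood apart. The chi-square per gene between replicates was 2.41 for controls 2 and 3 but 20.1 and 20.5 for pairs with control 1. It was 2.56 for sgUFL1 replicates 2 and 3 and 7.46 and 9.46 for pairs with sgUFL1 replicate 1. Results are therefore also given without control replicate 1. Whether that library differs for technical reasons or in the state of its cells was not tested. Of the markers of the line, the mesenchymal and basal genes VIM (145 to 184 FPKM), MSN (191 to 235 FPKM) and AXL (160 to 196 FPKM) were abundant in all 6 libraries, and the oestrogen receptor gene ESR1 had 3 to 7 counts per library. Luminal genes were not all low: KRT8 ran from 59.2 to 83.6 FPKM, KRT18 from 75.5 to 98.1 FPKM and KRT19 from 57.2 to 92.7 FPKM, ERBB2 from 5.32 to 6.88 FPKM, and FOXA1 from 5.31 to 6.49 FPKM beside 3.48 to 4.64 FPKM for the basal factor FOXC1. Of 17 leukocyte markers 3 were high enough to test, and their list summed to 7.72 to 8.43 CPM (counts scaled to a common library size, not divided by gene length) in sgUFL1 and 5.43 to 6.47 CPM in controls. CD3E and TYROBP had 0 counts in all 6 libraries and PTPRC at most 2. The list of fibroblast and endothelial markers, 7 of 17 tested, summed to 69.9 to 74.6 CPM in sgUFL1 and 49.9 to 76.3 CPM in controls. All 3 leukocyte and all 7 fibroblast and endothelial markers tested had a fold change above 0. The medians were 0.46 and 0.30 (log2), with 0 calls, with all 6 libraries. Without control replicate 1 the medians were 0.76 and 0.50, with 1 and 4 called higher, beside 8.87% of all tested genes. LUM had 0 counts in all 6 libraries and DCN at most 2. The part of such RNA in the results below was not tested.

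UFL1 itself (chromosome 6, 96521595 to 96555276, GRCh38) was at 12.8, 11.5 and 13.2 CPM in the 3 sgUFL1 libraries and at 16.7, 19.3 and 18.1 CPM in the controls. Every sgUFL1 library lay below every control library, so the targeted gene was lower under the FPKM names and higher under the count names. The groups also did not overlap for 24.4% of all tested genes. Of the 10 tested genes on each side of UFL1, 16 of 20 had a fold change below 0. These values do not settle which names are right. The log2 fold change of UFL1 was -0.53 (SE 0.12) with an edgeR adjusted p of 0.0524, which misses the threshold of 0.05. Without control replicate 1 it was -0.57 with an adjusted p of 0.00592. A guide can change a protein without changing the RNA level, and UFL1-AS1 overlaps the gene on the other strand, so reads of the 2 genes cannot be told apart where the counting does not use strand, which the sources used here do not give. UFM1 was at 53.9 ± 2.18 CPM in sgUFL1 and 53.5 ± 3.81 CPM in controls (SD, n = 3 each), a log2 fold change of 0.014 (SE 0.085, edgeR adjusted p = 0.956).

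Of 15033 genes tested, 224 (1.49% of those tested) were higher in sgUFL1 and 106 (0.705%) were lower, at an adjusted p under 0.05 in edgeR's quasi-likelihood test. Of these, 306 are protein-coding. At least a 2-fold change was seen for 51 of the higher and 24 of the lower genes. The groups did not overlap for any of the 330 called genes, against 3672 genes without overlap in all (24.4% of those tested). Upper-quartile scaling gave 316 higher and 89 lower genes.

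The counts depended on single libraries. Without control replicate 1 there were 1361 higher genes (8.87% of 15341 tested) and 1203 lower (7.84%), and all 330 called genes were again called with the same sign. Without sgUFL1 replicate 2 there were 6 higher and 7 lower genes, and without sgUFL1 replicate 3 there were 8 and 8. Leaving out sgUFL1 replicate 1 gave 88 and 83, control replicate 2 gave 33 and 17, and control replicate 3 gave 31 and 21. The direction of all 330 genes was the same in each of these fits. Changes also moved with base composition: across genes the fold change correlated with GC content at a Spearman rho of 0.314 (15033 genes, which share the same 6 libraries), and at 0.250 without control replicate 1. With offsets for GC content and length in the fit, rho was -0.0087, 250 genes were higher and 158 lower, and 256 of the 330 were again called with the same sign.

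**Figure D1:**
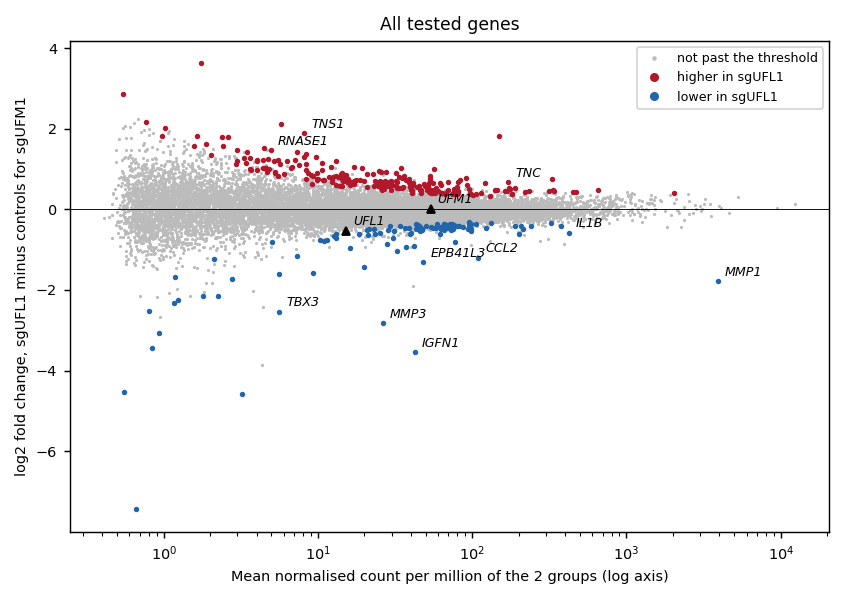
Log2 fold change (sgUFL1 minus controls for sgUFM1, y axis) against the mean CPM of both groups (x axis, log scale) for the 15033 tested genes. Red and blue points are the 224 higher and 106 lower genes, and black triangles mark UFL1 and UFM1; MMP1 is the abundant gene at -1.79.

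The smallest adjusted p-value among the leading genes was that of MMP1, interstitial collagenase, which cuts fibrillar collagen (chromosome 11, 102789920 to 102798160). It was at 1641, 1806 and 1817 CPM in sgUFL1 and at 6266, 6048 and 5888 CPM in controls. The groups were far apart and each was tight. The log2 fold change was -1.79 (SE 0.084, adjusted p = 5.63e-06), a 3.45-fold fall, and it passed the threshold without any 1 of the 6 libraries (-1.81 to -1.74). Its neighbour MMP3, stromelysin, was at 5.31, 7.32 and 6.72 CPM against 9.64, 65.3 and 63.2 CPM. All 3 sgUFL1 libraries were below all controls, but control replicate 1 lay close to sgUFL1 and far from the other 2 controls. Its log2 fold change of -2.83 (SE 0.55, adjusted p = 0.0322) became -3.30 without that library and lost the call when any 1 of the other 5 libraries was left out (adjusted p up to 0.189). In the other controls of the series, those for sgUFL1, MMP3 was at 14.5, 78.7 and 17.2 CPM, so it spread widely there too. The pseudogene WTAPP1, which overlaps both genes on the other strand, was lower as well (-2.15, adjusted p = 0.0126).

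Of 25 tested metalloproteinases, plasminogen activators and their inhibitors, 2 fell, MMP1 and MMP3, and 1 rose. That was PLAT, tissue plasminogen activator, at 374, 441 and 420 CPM in sgUFL1 against 290, 219 and 230 CPM in controls. The lowest sgUFL1 library was above the highest control, and the log2 fold change was 0.74 (SE 0.12, adjusted p = 0.0156). It missed the threshold without replicate 2 or 3 of either group (adjusted p up to 0.115). The median over the 25 genes was -0.02, beside -0.007 over all genes, of which 1.49% rose and 0.705% fell. With control replicate 1 left out, 5 of the 25 rose and 10 fell, beside 8.87% and 7.84% of all tested genes.

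Secreted signals of inflammation included several lower genes. Chemokines draw leukocytes to a tissue, and IL-1 alpha and IL-1 beta are cytokines that start inflammatory programmes in neighbouring cells. CCL2, a chemokine for monocytes, was at 60.1, 65.9 and 72.3 CPM in sgUFL1 and at 152, 158 and 149 CPM in controls. No sgUFL1 library reached 50% of any control library. Its log2 fold change was -1.21 (SE 0.085, adjusted p = 1.63e-04), and it passed the threshold without any 1 library. CXCL2, a chemokine for neutrophils, was at 18.2, 21.2 and 20.2 CPM against 24.5, 41.1 and 43.2 CPM. Control replicate 1 was again nearest to sgUFL1. The log2 fold change was -0.86 (SE 0.18, adjusted p = 0.0419), and -1.07 without that control.

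IL1B was at 314, 348 and 350 CPM in sgUFL1 and at 392, 571 and 562 CPM in controls, a log2 fold change of -0.59 (SE 0.13, adjusted p = 0.0429). IL1A was scarce, at 0.602, 0.68 and 0.38 CPM against 1.61, 1.9 and 1.94 CPM. It fell by 1.68 on the log2 scale (SE 0.36, adjusted p = 0.0417). Both kept apart from the controls in every library, and each lost the call when any 1 library other than control replicate 1 was left out, as CXCL2 did (adjusted p up to 0.216, 0.226 and 0.216 for IL1B, IL1A and CXCL2). In the other direction, TNFSF15, a cytokine of the TNF family that acts on endothelium and T cells, was at 21.3, 20.3 and 20.4 CPM against 11.6, 13.3 and 15.7 CPM (log2 fold change 0.62, SE 0.13, adjusted p = 0.0397). All 3 sgUFL1 values lay above the controls, and without any 1 library other than control replicate 1 its adjusted p rose to as much as 0.211.

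Over the lists, 2 of 11 tested chemokine ligands fell and 0 rose, with a median log2 fold change of -0.64. Of 16 cytokines and colony-stimulating factors 1 rose and 2 fell, with a median of 0.08. Over all tested genes 1.49% rose and 0.705% fell. Leaving out control replicate 1, 6 of 12 chemokine ligands fell and 0 rose, where 7.84% of all tested genes fell and 8.87% rose. CXCL1, CXCL3, CXCL8 and CXCL11 were the additional ones. CXCL11, a chemokine induced by interferon, was at 1.26, 1.87 and 0.951 CPM in sgUFL1 and at 0.927, 10.1 and 11.4 CPM in controls. Control replicate 1 thus lay below all sgUFL1 libraries (log2 fold change -2.43, SE 0.67, edgeR adjusted p = 0.0863 with all 6). Among the controls for sgUFL1, CXCL2 was at 25.0, 41.8 and 20.2 CPM and CXCL3 at 24.1, 40.3 and 19.9 CPM. CXCL11 was at 2.12, 14.5 and 2.30 CPM there, so low values were not confined to control replicate 1. None of 25 NF-kB components and feedback targets passed the test in edgeR with all 6 libraries, while 9 fell and 2 rose without control replicate 1.

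The promoters of called cytokine and chemokine genes are shown because such genes are textbook targets of the factors NF-kB and AP-1. They are the 250 bases before the RefSeq start of each gene (GRCh38.p14, all on the minus strand, written 5′ to 3′). The RefSeq start lay 98 bases inside the GENCODE 29 gene model for CXCL2, 97 for IL1A and 124 for IL1B, so the window holds that many bases of the longer model. For TNFSF15 it lay 13596 bases inside, and that window is not shown; CCL2 has no entry in the table. These genes and both motifs were chosen after the values were seen. Capitals mark matches on either strand to the AP-1 motif TGANTCA or to the NF-kB consensus. CXCL2 holds NF-kB matches that overlap each other on the 2 strands, IL1A an AP-1 match, and IL1B neither. The regions are chr4:74099196-74099445 for CXCL2, chr2:112784494-112784743 for IL1A and chr2:112836780-112837029 for IL1B.
CXCL2: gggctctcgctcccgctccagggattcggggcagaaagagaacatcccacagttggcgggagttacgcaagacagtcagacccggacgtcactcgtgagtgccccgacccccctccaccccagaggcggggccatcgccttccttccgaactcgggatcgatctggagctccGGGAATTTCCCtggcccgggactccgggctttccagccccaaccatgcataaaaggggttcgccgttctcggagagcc
IL1A: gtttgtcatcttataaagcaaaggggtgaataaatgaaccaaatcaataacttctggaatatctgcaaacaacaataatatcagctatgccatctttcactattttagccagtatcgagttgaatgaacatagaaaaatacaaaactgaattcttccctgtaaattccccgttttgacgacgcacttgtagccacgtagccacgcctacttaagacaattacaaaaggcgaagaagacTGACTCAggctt
IL1B: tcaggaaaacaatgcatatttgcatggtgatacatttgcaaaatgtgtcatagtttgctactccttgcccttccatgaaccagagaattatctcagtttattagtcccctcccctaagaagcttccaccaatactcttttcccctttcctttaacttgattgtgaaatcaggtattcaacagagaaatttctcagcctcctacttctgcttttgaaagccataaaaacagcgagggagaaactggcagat
Of all 27305 RefSeq promoters of this length, 6.6% hold the AP-1 motif and 5.05% the NF-kB consensus. The match in IL1A begins 12 bases and those in CXCL2 begin 78 and 77 bases before the RefSeq start. All 3 genes shown were lower, while TNFSF15, the called gene of these lists that rose, is not shown. Whether the motifs have a part in these changes was not tested.

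TBX3, a transcription factor of mammary development, was at 2.25, 1.48 and 1.14 CPM in sgUFL1 and at 9.15, 9.28 and 10.3 CPM in controls. No sgUFL1 library came near the controls. The log2 fold change was -2.54 (SE 0.24, adjusted p = 0.00111). EPB41L3, a membrane-skeleton protein of the band 4.1 family, was at 28.5, 27.6 and 26.5 CPM against 62.0, 74.9 and 69.6 CPM. Its log2 fold change was -1.32 (SE 0.095, adjusted p = 1.63e-04). CADM1, a cell adhesion molecule of the immunoglobulin family, was at 20.9, 22.1 and 21.2 CPM against 50.6, 39.5 and 42.3 CPM, a change of -1.04 (SE 0.12, adjusted p = 0.00397). These 3 genes, with MMP1 and CCL2, are the 5 of the 24 leading genes that passed the threshold without any 1 library.

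IGFN1, an immunoglobulin-like and fibronectin-domain protein best known from muscle, had the largest fall among the leading genes and the widest spread. It was at 8.60, 5.50 and 6.02 CPM in sgUFL1 and at 147, 41.9 and 45.4 CPM in controls. Control replicate 1 stood over 3 times above the other 2 controls, and the log2 fold change was -3.54 (SE 0.47, adjusted p = 0.00685) with it and -2.68 without it. POU3F2, a neural transcription factor, was at 12.1, 11.6 and 8.24 CPM against 18.7, 33.5 and 35.1 CPM (-1.44, SE 0.23, adjusted p = 0.0166). Here control replicate 1 was the lowest control, and the change was -1.67 without it. In the controls for sgUFL1, replicate 1 was likewise the highest for IGFN1 (84.4, 24.6 and 53.8 CPM) and the lowest for POU3F2 (15.2, 31.6 and 19.8 CPM).

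PDPN, SAMSN1 and CSF2RA were also among the 12 lowest. PDPN, podoplanin, a mucin-like surface protein of lymphatic vessels and invading cells, was at 10.6, 9.53 and 12.4 CPM against 21.8, 21.2 and 20.96 CPM (-0.97, SE 0.13). SAMSN1, an adaptor protein of immune cells, changed by -1.60 (SE 0.24), and CSF2RA, the alpha chain of the GM-CSF receptor, by -1.16 (SE 0.17). Their adjusted p-values ran from 0.00685 to 0.0126. PDPN lost the call without sgUFL1 replicate 2 (adjusted p = 0.06), and SAMSN1 and CSF2RA without sgUFL1 replicate 2 or 3 (adjusted p up to 0.0898).

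The 12 highest genes were less abundant, all under 15 CPM in every library. TNS1, tensin 1, links actin to integrins at focal adhesions, and it was at 14.6, 11.9 and 11.9 CPM in sgUFL1 against 5.62, 2.22 and 2.46 CPM in controls. Control replicate 1 lay nearest to sgUFL1. The log2 fold change was 1.89 (SE 0.30, adjusted p = 0.0165), and 2.47 without that control. RNASE1, a secreted ribonuclease, was at 7.39, 7.04 and 7.29 CPM against 2.47, 3.01 and 2.39 CPM (1.47, SE 0.19, adjusted p = 0.00678). NAT8L, the enzyme that makes N-acetylaspartate, was at 11.5, 13.2 and 10.1 CPM against 4.20, 5.43 and 4.66 CPM (1.29, SE 0.17, adjusted p = 0.0069). In RNASE1 and NAT8L no control stood apart, and all sgUFL1 values were above them.

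DMTN, an actin-binding protein, changed by 1.52 (SE 0.22), ANO2, a calcium-activated chloride channel, by 1.43 (SE 0.27), SUSD3, a sushi-domain membrane protein, by 1.41 (SE 0.19) and DMBT1, a secreted scavenger receptor protein, by 1.38 (SE 0.19). LBH, a transcription cofactor, KCNN2, a calcium-activated potassium channel, CDK18, a cyclin-dependent kinase, RASSF2, a RAS-association protein, and HLA-DPA1, a chain of MHC class II, lay between 1.21 and 1.28. Their adjusted p-values ran from 0.00685 to 0.0469. HLA-DPA1 overlaps HLA-DPB1 on the other strand. With offsets for GC content and length, LBH missed the threshold (adjusted p = 0.0521).

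Of the 24 leading genes, 8 passed the threshold in 1 of the 6 fits that leave out a library, 1 in 2, 8 in 4, 2 in 5 and 5 in all 6. TNS1, ANO2, KCNN2, CDK18, RASSF2, HLA-DPA1, MMP3 and POU3F2 are the 8 that passed only without control replicate 1, with adjusted p-values up to 0.226 otherwise. DMTN, RNASE1, SUSD3, DMBT1 and IGFN1 missed it without sgUFL1 replicate 2 or 3 (adjusted p up to 0.0905), NAT8L without sgUFL1 replicate 2 (0.0686), and LBH without control replicate 3 or any sgUFL1 library (up to 0.222).

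**Figure D2:**
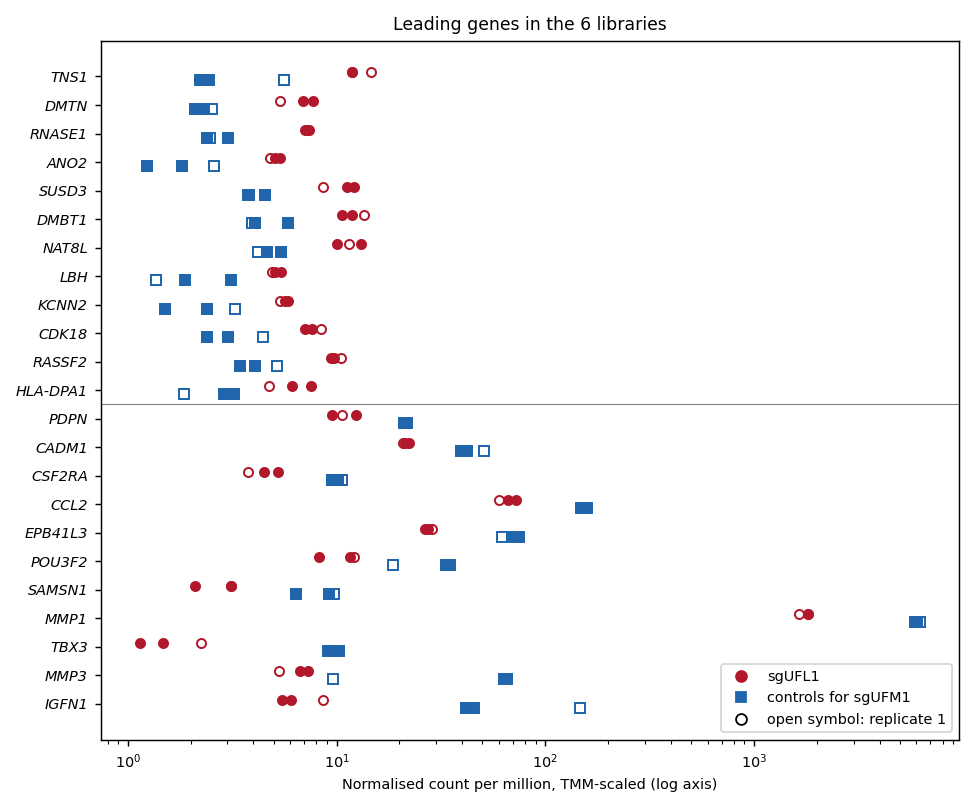
CPM (x axis, log scale) of the highest and lowest genes named in the text in the 3 sgUFL1 libraries (red circles) and the 3 controls for sgUFM1 (blue squares), with replicate 1 of each group as an open symbol. No gene has overlapping groups, and the open square of MMP3 lies close to the sgUFL1 values while that of IGFN1 lies far beyond the other controls.

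The lists that follow are read against the share of all tested genes, which was 1.49% higher and 0.705% lower with all 6 libraries, and 8.87% higher and 7.84% lower without control replicate 1. None of 13 tested genes of the UFMylation machinery and its ribosomal target passed the test, with a median log2 fold change of -0.02. RPL26, the ribosomal target, was at 71.9, 72.1 and 78.9 CPM in sgUFL1 and at 56.5, 60.2 and 59.6 CPM in controls. The groups did not overlap, and the change of 0.34 (SE 0.079) had an adjusted p of 0.0519. When control replicate 1 was left out, RPL26 and CDK5RAP3 were called higher and UFL1 lower. None of 10 ER-phagy receptors, which hand ER to the autophagosome, passed the test in either fit, and the values for RETREG1 were 3.59 CPM against 2.39 CPM (adjusted p = 0.32).

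Most calls in the lists that follow were lost when 1 library other than control replicate 1 was left out. TNC lost its call without sgUFL1 replicate 2, MYC without sgUFL1 replicate 2 or 3, GDF15 without any sgUFL1 library, and IGFBP3 without sgUFL1 replicate 2 or 3 or control replicate 3. Each of the others was lost without replicate 2 or 3 of either group, and RPS29, RPL37, ATP5ME, HLA-F, CD274, EGR1, DSP, CLDN7, CCNE2 and RRM2 also without sgUFL1 replicate 1 (adjusted p up to 0.277 among these genes). All were called without control replicate 1. Reads of RPS29 and LRR1, ATP5ME and MYL5, NFE2L2 and AGPS, CCNE2 and INTS8, HLA-F and HLA-F-AS1, TNC and DEC1, CLDN7 and ELP5, and EGFR and EGFR-AS1 cannot be told apart where these pairs overlap on opposite strands.

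Of 31 genes for ER chaperones, folding and disposal of misfolded protein, 1 fell: EDEM3, a mannosidase that marks glycoproteins for disposal, at 83.4, 73.9 and 81.0 CPM against 109, 114 and 114 CPM (-0.50, SE 0.077, adjusted p = 0.0156). Of 41 translocon, SRP and oligosaccharyltransferase genes, 1 fell: SEC63, a partner of the translocon, at 52.2, 48.6 and 44.9 CPM against 64.0, 68.5 and 69.6 CPM (-0.47, SE 0.086, adjusted p = 0.0284). Both were lower than every control in every sgUFL1 library. With GC and length offsets SEC63 missed the threshold (adjusted p = 0.0671). In the fit without control replicate 1, 10 of the 31 fell and 1 rose, and 9 of the 41 fell and 1 rose. None of 13 sensors and regulators of the unfolded protein response passed the test with all 6 libraries. Of 28 genes of the ATF4 response 1 fell, GDF15, a stress-induced cytokine of the TGF-beta family, at 22.1, 28.2 and 25.9 CPM against 60.4, 40.6 and 45.4 CPM (-0.94, SE 0.15, adjusted p = 0.02), while without control replicate 1 there were 7 higher and 3 lower.

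Of 79 cytosolic ribosomal protein genes 3 rose, RPS29, RPL37 and RPL13, and 71 had a fold change above 0, beside a median of -0.007 over all genes. These members share the same 6 libraries and are not independent. Their summed CPM overlapped between groups, at 64518.5 to 74142.4 in sgUFL1 and 53187 to 66123.6 in controls. Ribosomal protein genes have many processed copies in the genome, which makes their counts uncertain. RPL13 was at 2058, 2446 and 2451 CPM in sgUFL1 and at 1687, 1741 and 1821 CPM in controls (0.41, SE 0.089, adjusted p = 0.0429). The median of the list was 0.19 with all libraries, 0.10 without control replicate 1, where 24 rose and 3 fell, and 0.16 with the GC and length offsets. Of 75 nuclear genes of oxidative phosphorylation 1 rose, a share near the 1.49% of all genes. It was ATP5ME, a small subunit of ATP synthase, with a list median of 0.12, and it missed the threshold with GC and length offsets (adjusted p = 0.0709). Of 33 ribosome biogenesis factors 1 fell, UTP20, a factor of the small subunit, and the list median was -0.04.

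Among 51 tested S phase genes and E2F targets, 4 fell and 0 rose, with a median of -0.13. CLSPN, the checkpoint adaptor claspin, was at 66.3, 62.0 and 57.0 CPM against 82.0, 84.3 and 88.4 CPM (-0.45, SE 0.083, adjusted p = 0.0276). CCNE2, cyclin E2, was at 9.09, 8.45 and 7.99 CPM against 11.7, 16.5 and 15.1 CPM (-0.76, SE 0.16, adjusted p = 0.0383). MCM10, a factor that starts replication, changed by -0.38 (SE 0.083) and RRM2, a subunit of ribonucleotide reductase, by -0.41 (SE 0.092). With GC and length offsets CCNE2 missed the threshold (adjusted p = 0.0567). Leaving control replicate 1 out gave 16 that fell and 0 that rose. Of 46 genes of G2 and mitosis 1 rose, CKS2, a subunit that binds cyclin-dependent kinases, and 0 fell, and without that control 1 rose and 9 fell.

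Of 24 targets of NRF2, the factor that turns on antioxidant genes, 1 fell with all libraries. This was NFE2L2, the gene of NRF2 itself, at 73.3, 65.1 and 66.6 CPM against 90.7, 92.1 and 89.0 CPM (-0.40, SE 0.079, adjusted p = 0.0346). The list median was -0.23 and 4 of the 24 had a fold change above 0. Once control replicate 1 was left out, 13 of 25 fell and 0 rose. Of 46 interferon-stimulated genes 1 fell, HERC5, the ligase for ISG15, at 35.8, 29.9 and 32.9 CPM against 45.0, 46.6 and 44.3 CPM (-0.46, SE 0.097, adjusted p = 0.0419), and without control replicate 1, 17 fell and 2 rose. Over all tested genes the share of lower calls went from 0.705% to 7.84% when that library was left out.

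Keratin and junction genes included higher ones. Of 23 keratins and genes of epithelial junctions 3 rose and 0 fell, with a median of 0.21. KRT19, a keratin of luminal epithelium, was at 184, 219 and 208 CPM in sgUFL1 and at 148, 135 and 140 CPM in controls (0.54, SE 0.086, adjusted p = 0.0182). DSP, desmoplakin, an anchor of desmosomes, changed by 0.65 (SE 0.12, adjusted p = 0.0297) and CLDN7, a claudin of tight junctions, by 0.70 (SE 0.13, adjusted p = 0.0322). With GC and length offsets CLDN7 missed the threshold (adjusted p = 0.0531). Of 18 mesenchymal markers none passed the test in edgeR with all 6 libraries, and 2 rose and 5 fell without control replicate 1.

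TNC, tenascin C, a matrix glycoprotein, was at 204, 219 and 203 CPM in sgUFL1 and at 139, 127 and 129 CPM in controls. It was the 1 of 41 collagens and matrix proteins that rose (0.67, SE 0.078, adjusted p = 0.00418), and without sgUFL1 replicate 2 it had an adjusted p of 0.0542. Of all tested genes 1.49% rose. Without control replicate 1, 9 of the 41 rose and 8 fell. Of 27 YAP and TEAD targets 2 rose, CTGF, a matricellular growth factor, at 533, 543 and 549 CPM against 412, 409 and 399 CPM (0.42, SE 0.071, adjusted p = 0.0235), and IGFBP3, which binds insulin-like growth factors (0.67, SE 0.10, adjusted p = 0.0147). EGFR, the epidermal growth factor receptor and a marker of basal breast cells, fell by 0.41 on the log2 scale (SE 0.092, adjusted p = 0.0469).

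Of 22 immediate early genes, which respond first to growth signals, 2 rose. MYC, a growth-promoting transcription factor, was at 138, 157 and 152 CPM against 99.6, 86.0 and 98.1 CPM (0.66, SE 0.088, adjusted p = 0.00685). EGR1, a zinc-finger factor induced by growth factors, was at 62.1, 62.5 and 60.2 CPM against 35.6, 44.4 and 46.7 CPM (0.55, SE 0.10, adjusted p = 0.0292). All sgUFL1 values of both genes were above all controls. Of 9 tested ligands of immune checkpoints 1 rose, CD274, which encodes PD-L1, the ligand of the inhibitory receptor PD-1, at 46.8, 47.2 and 49.9 CPM against 35.0, 29.1 and 25.7 CPM (0.68, SE 0.12, adjusted p = 0.0245). Control replicate 1 was the highest control, and without it the change was 0.82, while the adjusted p reached 0.171 without another library. Of 18 genes of MHC class I presentation 1 rose, HLA-F, a non-classical class I gene, at 3.89, 5.22 and 4.94 CPM against 1.79, 1.70 and 2.33 CPM (1.27, SE 0.24, adjusted p = 0.0322).

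**Figure D3:**
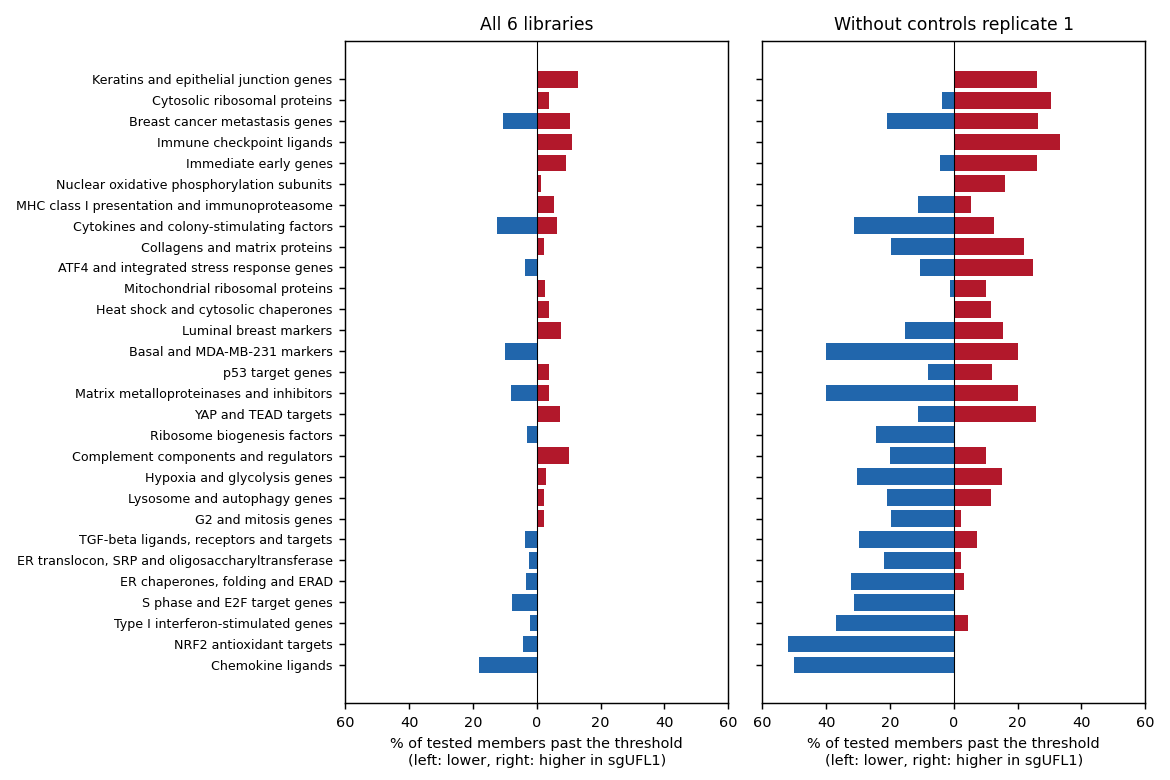
Share of tested members past the threshold (x axis, percent; left and blue for lower, right and red for higher in sgUFL1) in each list with at least 1 call, for all 6 libraries and without control replicate 1, ordered by the list's median log2 fold change. With all 6 libraries 2 of 11 chemokine ligands and 1 of 24 genes of the NRF2 list, NFE2L2 itself, were lower. Without control replicate 1 the counts were 6 of 12 and 13 of 25.

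The second guide gives a comparison with no library in common: sgUFM1 against the controls for sgUFL1. Of the 330 genes called here 325 were tested there, and 84 were called there with the same sign (56 higher, 28 lower), which is 25.8% of the 325 and 5.64% of the 1489 genes called there and tested here. A further 7 were called with the opposite sign. Under the count table's names these counts would swap. Both comparisons had a fold change that correlated with GC content in the same direction, at a rho of 0.314 here and 0.530 there, and the part of this trend in the shared calls was not tested. In that comparison 837 genes were higher (5.57% of those tested) and 666 lower (4.43%). The test of the difference between the 2 guides' changes called 411 of 15821 genes (2.6%), 200 with a higher and 211 with a lower change in sgUFL1.

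MMP1 fell under both guides and by less in sgUFL1. It was at 995, 1031 and 1102 CPM in sgUFM1 and at 6792, 6369 and 7416 CPM in the controls for sgUFL1, a log2 fold change of -2.72 (SE 0.12). The difference of 0.93 (SE 0.12) had an adjusted p of 0.00181. EPB41L3 differed more: it was at 5.64, 5.41 and 5.39 CPM in sgUFM1 against 73.0, 82.9 and 71.3 CPM, so that its fall of 1.32 here stood beside one of 3.79 there (difference 2.46, SE 0.15, adjusted p = 4.29e-07). TBX3 fell by 2.54 here and was at 5.39, 6.70 and 4.63 CPM in sgUFM1 against 8.85, 8.23 and 7.02 CPM, a change of -0.53 that did not pass (difference -2.02, SE 0.31, adjusted p = 0.00489).

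CCL2 changed by -1.21 here and -1.72 there, and that difference did not pass the test (0.51, SE 0.14, adjusted p = 0.0749). CXCL2 was lower here and at 51.5, 50.8 and 45.7 CPM in sgUFM1 against 25.0, 41.8 and 20.2 CPM, a rise of 0.76 (difference -1.63, adjusted p = 0.0165). IL1B, lower here, had a change of 0.51 there that did not pass (difference -1.10, adjusted p = 0.0189). MYC rose here and fell there by 0.38 (difference 1.04, adjusted p = 0.00174). TNS1 was at 2.27, 1.87 and 1.46 CPM in sgUFM1 against 6.61, 2.26 and 2.67 CPM, so the sgUFL1 libraries held the only values above 7 CPM in the series (difference 2.93, SE 0.55, adjusted p = 0.0127). UFL1 in sgUFM1 was at 20.5, 25.1 and 23.7 CPM against 19.8, 24.5 and 30.3 CPM, and its difference did not pass (-0.42, SE 0.21, adjusted p = 0.296), whereas UFM1 fell by 0.76 in sgUFM1 and the difference of 0.77 (SE 0.13) had an adjusted p of 0.00918.

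**Figure D4:**
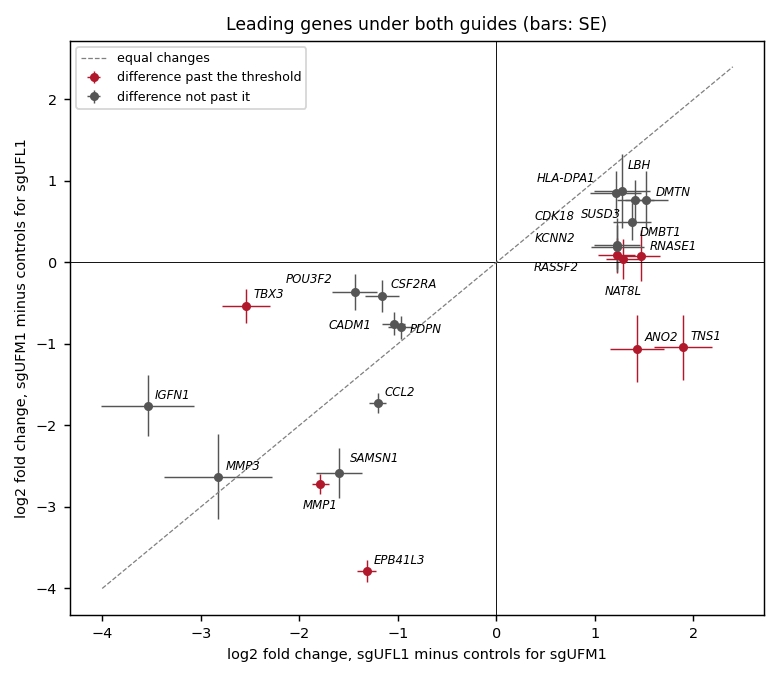
Log2 fold change of the leading genes named in the text in sgUFL1 against the controls for sgUFM1 (x axis) and in sgUFM1 against the controls for sgUFL1 (y axis), with standard errors; red points have a difference past the threshold. MMP1 and EPB41L3 lie below the line of equal changes, and TNS1 and ANO2 are above 0 for sgUFL1 and below 0 for sgUFM1.

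Runs of neighbouring genes moved together in places. Over 14571 windows of 20 tested neighbours, which overlap each other, the median log2 fold change lay between -0.26 and 0.26 from the 1st to the 99th percentile. Windows named here were picked for their medians, so their counts of genes above or below 0 follow in part from that choice. The highest window ran from AK3 to NFIB on chromosome 9 (4709559 to 14398983), with a median of 0.45. In it 19 of 20 genes were above 0 and 4 were called higher, beside 1.49% of all tested genes. The 4 were AK3, a mitochondrial adenylate kinase, PLGRKT, a plasminogen receptor, DMAC1, an assembly factor of complex I, and CD274. JAK2, the kinase of interferon and cytokine receptors in the same window, was at 5.66 CPM in sgUFL1 and 4.21 CPM in controls (0.43, SE 0.19, adjusted p = 0.235). The median was 0.57 without control replicate 1, 0.52 with GC and length offsets, and 0.22 in sgUFM1 against its comparison group. The next highest window lay on chromosome 8 (126552442 to 140458579), with a median of 0.41 and MYC, PVT1, a long non-coding RNA beside MYC, and NDRG1, a stress-response gene, as the 3 called genes; in sgUFM1 its median was -0.29.

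Among the lowest windows was the one that holds UFL1, from CASP8AP2 to GRIK2 on chromosome 6 (89829894 to 102070083). Its median was -0.34, 18 of 20 genes were below 0 and 2 were called lower, MMS22L, a factor of replication repair, and POU3F2. The genes around UFL1 were looked at one by one after this was seen. Of the 10 tested genes on each side, 16 of 20 were below 0 with a median of -0.27, and 1 had a lower fold change than UFL1. Of 20 on each side, 34 of 40 were below 0, with a median of -0.26, and 3 were lower than UFL1. With GC and length offsets the medians were -0.17 for both, and in sgUFM1 they were -0.23 and -0.19. The change of UFL1 itself was -0.38 with these offsets (adjusted p = 0.102).

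**Figure D5:**
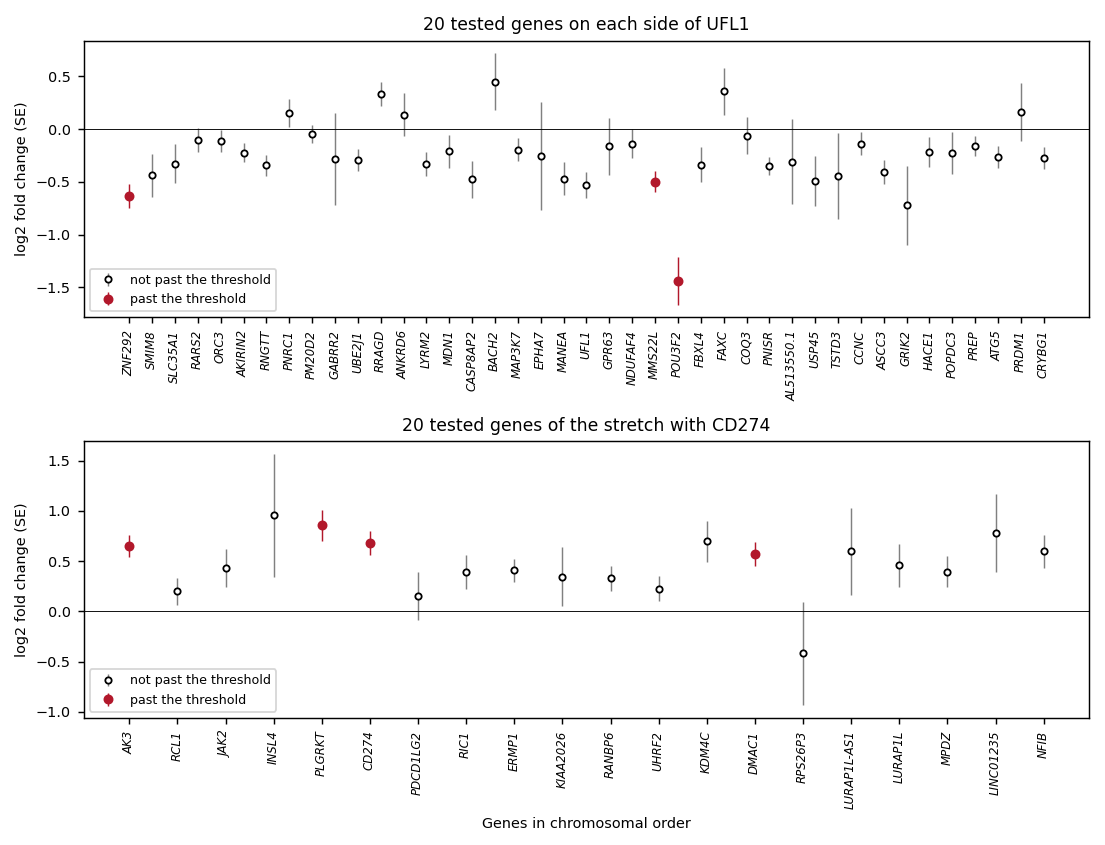
Log2 fold change with standard error (y axis) of UFL1 and 20 tested genes on each side in chromosomal order (upper panel), and of the 20 genes of the window with CD274 (lower panel); filled red points passed the threshold. In the upper panel 34 of the 40 neighbours are below 0, and in the lower panel 19 of 20 genes are above 0.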

How the data were processed

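Per the labels' protocols, cells were lysed in TRIzol and total RNA went into standard Illumina libraries. The deposited tables hold whole-number counts per gene and FPKM values for 12 libraries. The authors' tools were STAR 2.7.7a, featureCounts 2.0.0 and fastp 0.20.1 on GRCh38, per the submitters' processing notes; no source used here gives settings or strand. Columns of the 2 tables were matched over 12320 genes with at least 20 counts: the SD of the log2 ratio was at most 6.46e-10 for the match and at least 0.193 for the next best.

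Low counts were removed with filterByExpr, the 6 libraries scaled by TMM, and genes tested by quasi-likelihood in edgeR 4.0.16 under R 4.3.3, with Benjamini-Hochberg adjustment over all genes tested and a threshold of 0.05. The CPM values are scaled by TMM over all 12 libraries and are not divided by gene length. The difference between guides was fitted on all 12. Named genes are the 12 highest and 12 lowest fold changes among called protein-coding genes whose mean in 1 group reached 5 CPM, UFL1, UFM1, and up to 4 members of each of 44 lists by smallest p; 1 of the 12 lowest genes is counted but not reported here. Members, lists and tests were chosen with earlier results of these data known. Alternatives were RLE and upper-quartile scaling, other filters, DESeq2 1.42.0, a model of 12 libraries, a replicate block, lowess offsets for GC content and length (span 0.3), leaving out each library, and limma 3.58.1 on log2(FPKM + 0.5). Leaving out both libraries numbered 1 was added after the data were seen. The procedure was run on counts simulated with known changes. That simulation held no outlying library, GC trend or replicate effect, so it does not show how the procedure behaves under them.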

Additional observations from a re-analysis of the deposited data

Results flagged for a closer look

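For 14 genes the change in sgUFL1 against the controls for sgUFM1 differed from the change in sgUFM1 against the controls for sgUFL1, by the edgeR test of the difference over all 12 libraries. Only named genes called here, UFL1 and UFM1 were considered, and over all genes the test called 411 of 15821 (2.6%). Most were named for their change in libraries that also enter this test, so the selection favours a difference. The values are differences of log2 fold changes. Higher under the UFL1 guide were TNS1 by 2.93, ANO2 by 2.48, RNASE1 by 1.37, NAT8L by 1.24 and RASSF2 by 1.12, all called higher here and none called in the other comparison. EPB41L3 differed by 2.46 and MMP1 by 0.93, as both fell further in sgUFM1. MYC differed by 1.04, called with opposite signs in the 2 comparisons, CCNG1, a cyclin G, by 0.75 and PLAT by 0.67. UFM1 differed by 0.77. Lower under the UFL1 guide were TBX3 by -2.02, CXCL2 by -1.63 and IL1B by -1.10.

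The test of the difference passed without any 1 of the 12 libraries for TNS1, ANO2, TBX3, MMP1, EPB41L3, UFM1 and MYC. It passed in 8 of 12 such fits for CXCL2 and CCNG1, 6 for NAT8L, 5 for IL1B, 3 for RNASE1 and 2 for RASSF2 and PLAT. Under the count table's names of the libraries the first of the 2 changes turns its sign and the difference would have to be formed anew.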

How the results depend on the processing

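The main counts were 224 higher and 106 lower genes. They were 226 and 106 with RLE scaling, 316 and 89 with upper-quartile scaling, 669 and 447 with no filter on low counts, 470 and 286 in DESeq2, and 2379 and 2436 without both libraries numbered 1. Limma on log2(FPKM + 0.5) gave 24 and 11, 19 and 9 with a pseudocount of 0.1, 24 and 10 with 1, and 0 and 0 with no filter, where 3235 genes had an unadjusted p under 0.05. Leaving out 1 library gave 6 to 1361 higher and 7 to 1203 lower genes. The UFL1 transcript passed the threshold with no filter (-0.52, adjusted p = 0.0201), in DESeq2 (-0.53, 0.0221), without control replicate 1 (-0.57) and without both libraries numbered 1 (-0.59, 6.26e-04); over the fits that leave out 1 library it ran from -0.57 to -0.47. The UFM1 transcript ran from -0.0302 to 0.0603, below 0 without sgUFL1 replicate 3 (-0.00947) or control replicate 1.

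Libraries with the same number deviated together at a correlation of 0.191, 0.0807 and 0.0442. For different numbers, pairs with a replicate 1 ran from -0.146 to -0.0924, and those of replicates 2 and 3 were at 0.0765 and 0.0796. The main fit did not pair libraries by number, and whether the numbers mark a shared batch was not tested. With the replicate block there were 489 higher and 343 lower genes and UFL1 was at -0.53 (adjusted p = 0.0441); with the block and GC and length offsets there were 339 and 195.

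The 411 genes with different changes under the guides were 1084 with no filter, 827 in DESeq2, 775 with GC and length offsets, 1003 with these and the replicate block, and 110 (without controls for sgUFM1 replicate 3) to 1591 (without controls for sgUFL1 replicate 2) when 1 library was left out. The difference of MMP3 (-0.21) ran down to -1.42 and was 0.19 and 0.14 without controls for sgUFL1 replicate 1 and 3 and 0.13 and 0.089 without controls for sgUFM1 replicate 2 and 3, and that of LBH ran from -0.57 (without controls for sgUFL1 replicate 2) to 0.80. The log2 fold change of CSF1R in sgUFL1 against the controls for sgUFM1 was 0.27 and up to 0.88. It was -0.16 without sgUFL1 replicate 3 and -0.12 without control replicate 1, and neither passed. The cause of these changes was not tested. Of the values of the 24 leading genes over the alternatives, 346 kept their side of the threshold, 134 missed it and 0 turned sign. The highest window median was 0.82 for 10 genes and 0.34 for 40, the lowest -0.83 and -0.28.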

Other observations

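Some called genes lay outside the rule for named genes and were chosen after their values were seen. RN7SL2, a gene for the RNA of the signal recognition particle, was at 226, 184 and 282 CPM in sgUFL1 and at 66.6, 85.1 and 46.6 CPM in controls (log2 fold change 1.81, SE 0.20, adjusted p = 0.00397). It was at 130, 60.9 and 39.7 CPM in sgUFM1 and at 48.6, 20.3 and 13.3 CPM in the controls for sgUFL1. This RNA has near-identical copies in the genome, so its count is uncertain, and the way RNA was selected for the libraries is not given in the sources used here.

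A pair of overlapping genes on chromosome 17 was nearly silent in sgUFL1. CCDC144NL-AS1 (20868433 to 21002276) was at 0.383, 0.227 and 0.127 CPM in sgUFL1 and at 7.35, 4.97 and 6.15 CPM in controls (-4.57, SE 0.36, adjusted p = 3.42e-04). It was at 2.08, 0.966 and 2.73 CPM in sgUFM1 and at 8.67, 5.55 and 10.3 CPM in the controls for sgUFL1 (-2.08, adjusted p = 0.00433). CCDC144NL had 0 counts in each sgUFL1 library and 1.67, 1.05 and 1.23 CPM in controls, which is at least 7.58-fold lower against a floor of 3 counts per library.

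RBFOX3, a splicing factor of neurons, was at 3.18, 2.95 and 3.61 CPM in sgUFL1 and at 0.124, 0.458 and 0.194 CPM in controls (3.63, SE 0.42, adjusted p = 0.00418). All 6 other libraries of the series lay between 0.121 and 0.515 CPM. TMEM132D-AS1, a non-coding RNA, was at 9.64, 9.87 and 8.49 CPM against 1.42, 2.35 and 2.72 CPM (2.12, SE 0.23, adjusted p = 0.00387).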
